A study of Mus musculus with 6 samples.

Results

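The genes described here are the semaphorins, their plexin and neuropilin receptors and the plexin domain-containing genes, in the embryonic mouse forebrain. They were chosen by symbol alone (Sema3 to Sema7, Plxna to Plxnd, Plxdc1 and Plxdc2, Nrp1 and Nrp2). This gave 33 genes of the 33084 in the count table: 20 semaphorins, 9 plexins, 2 neuropilins and 2 plexin domain-containing genes. All 33 passed the filter on low counts and were among the 19616 genes tested. RNA was sequenced from 3 wild-type forebrain samples (controls) and 3 forebrain samples of the genotype Dyrk1a<DlxCre/+> (mutants, also written Dyrk1a<Dlx/+> in the labels) at embryonic day 15.5. In the mutants the kinase gene Dyrk1a was inactivated conditionally in the Dlx5 domain, the territory that makes the GABAergic neurons of the ventral forebrain. The genotype is written with a + allele, so 1 copy is taken to remain there, and the whole forebrain was sampled, including cells outside that domain. The labels do not say whether the controls carry the Cre driver or the conditional allele, or whether the embryos came from separate litters. The p-values therefore measure only the spread between these samples, which may be partly technical.

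Semaphorins are secreted or membrane-bound guidance proteins that share an extracellular sema domain. Secreted class 3 semaphorins mostly act through a complex in which a neuropilin binds the ligand and a plexin carries the signal, while most membrane-bound classes bind plexins directly. The plexin's cytoplasmic part has a GTPase-activating domain that acts on small GTPases of the Ras and Rap family and alters the cytoskeleton and adhesion of the growth cone or the migrating cell. In the developing forebrain the system is known for steering cortical interneurons around the striatum, for sorting axon tracts and for guiding radial migration and blood vessels.

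The libraries held between 24646616 and 38315004 counts. Dyrk1a itself stood between 159 and 186 CPM (counts relative to library size, scaled between libraries by TMM), with a log2 fold change of -0.02 ± 0.09 (SE), mutant over control. Its count covers the whole gene and cannot check the labels. The 8 forebrain markers were all tested and summed to between 248 and 363.9 CPM, whereas none of 8 hindbrain markers passed the filter, they summed to at most 1.23 CPM, and Hoxa2 had 0 counts in every library. The replicate 3 libraries of both genotypes stood apart from the other 4 on the first principal component (37.4% of the variance). Mutant replicate 2 stood apart on the second. Both features touched the members and are given with them.

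Receptors were the most abundant part of the system. Levels are compared between genes as CPM per kilobase of exon length (CPM per kb), averaged over the 6 libraries. Plxna2 had the highest level, 64.7 CPM per kb, above 98.1% of tested genes, and its range over libraries did not overlap that of the next gene. Plxna3 followed at 52.9, Plxnb2 at 49.6 and Plxna1 at 49.2 CPM per kb, with overlapping ranges. Plxna4 (41.6) and Plxnb1 (36.5) lay below these with overlapping ranges. Nrp1 (23.3), Sema4c (23.0) and Nrp2 (22.3) came next and could not be ordered.

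Among the ligands, Sema4c was followed by Sema6c (17.1), Sema6d (14.8), Sema7a (13.8), Sema6b (12.6), Sema6a (11.4), Sema5b (10.8) and Sema5a (9.23 CPM per kb). The secreted class 3 genes and the other class 4 genes filled the lower places together. Sema3f (7.63), Sema3c (7.50) and Sema4b (7.38) overlapped in range with each other, and Sema3f also with Sema5a. Sema4g (5.85), Sema4a (5.07), Sema3a (4.57), Sema4d (4.05) and Sema4f (3.99) followed, each overlapping the next. Sema3g stood at 1.95, and Sema3e, Sema3b and Sema3d were at 0.874, 0.599 and 0.458 CPM per kb. Plxdc1 (0.146) and Plxnb3 (0.0820) were the lowest of all 33, above only 2.6% and 0.6% of tested genes. In the order of the 33 levels, 7 of 32 neighbouring pairs had separate ranges over the libraries, and 25 overlapped.

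**Figure D1:**
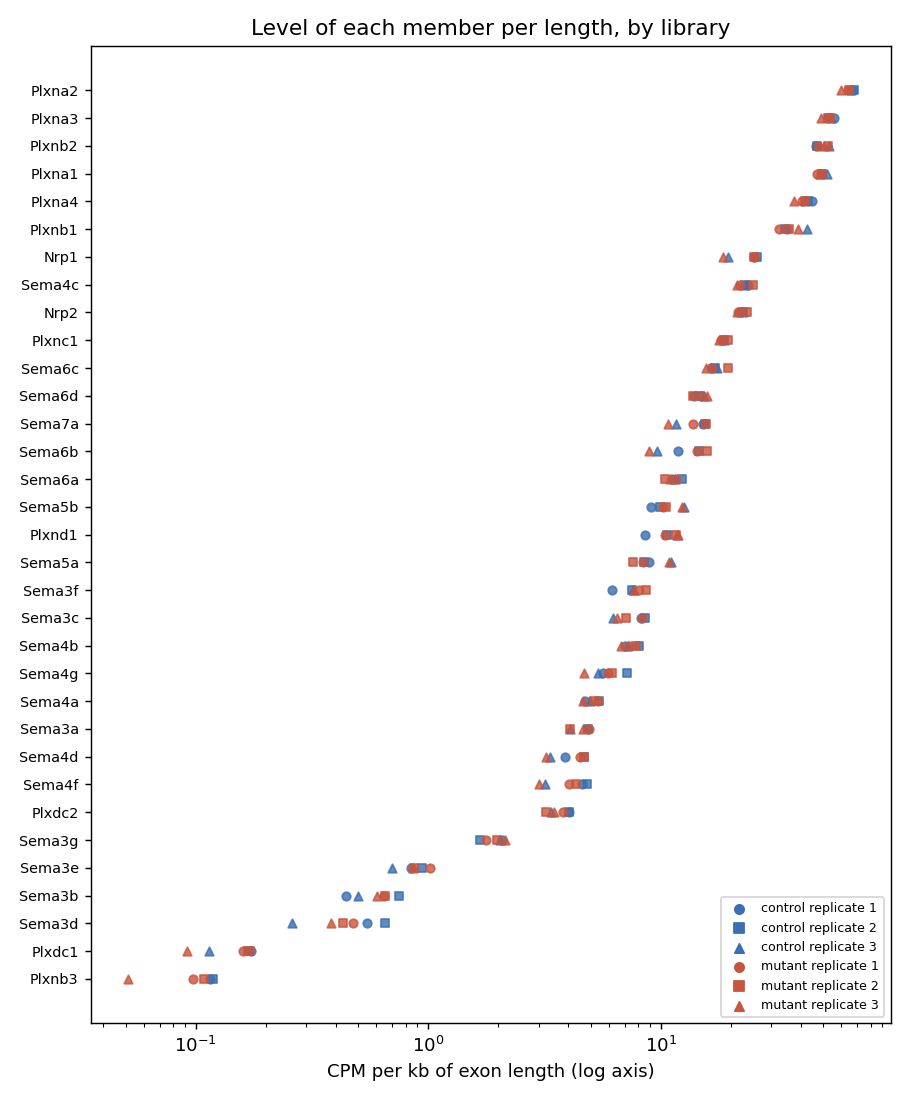
Level of each of the 33 members per length in the 6 libraries (CPM per kb of exon length, log axis), with colour for genotype and marker shape for replicate. Plexins fill the top 6 places, from Plxnb1 at 36.5 to Plxna2 at 64.7, and the level of Plxnb3 in control replicate 3 is 0 and is not drawn.

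By role, the 4 A-type plexins held between 38.0% and 40.3% of the summed level of all members in the 6 libraries. The 5 plexins of types B to D held 20.2% to 23.4%, semaphorins of classes 5 to 7 held 16.2% to 17.1%, and class 4 held 8.57% to 9.73%. The neuropilins held 7.77% to 8.86% and class 3 semaphorins 3.95% to 4.78%. The order depends on the length used. With the longest annotated transcript in place of all exons, Nrp1 stood at 62.5 CPM per kb and moved from rank 7 to rank 2, the largest change of rank.

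The start regions of the members are rich in G and C, as are those of most tested genes. RefSeq promoters on GRCm38.p6, 250 bases before to 50 after a start site, were found for 26 of the 33 genes, 37 promoters in all, with a median GC content of 63.7% against 60.0% for the promoters of tested genes. The GC box GGGCGG, read on both strands, occurs in 27 of 37 (73.0%), against 58.7% of the promoters of tested genes and 35.7% of all promoters in the table. The TATA box TATAAA, also read on both strands, is in 0 of 37, against 7.70% of the promoters of tested genes. The CCAAT box, read in the same way, is in 7 of 37 (18.9%), against 37.2% of the promoters of tested genes. These counts describe letters and not binding. A 30-base stretch is shown for the highest plexin of each group and for both neuropilins, 5′ to 3′ on the gene's strand, with the last GC box upstream of the start site in capitals.
Plxna2 (chr1:194619734-194619763, + strand): ggcggggcgcgtGGGCGGggagggggttaa
Plxnb2 (chr15:89180789-89180818, - strand): tccttctcccctggcggGGGCGGggccggc
Nrp1 (chr8:128358963-128358992, + strand): tgtgcggggaggGGGCGGgaggaagggagg
Nrp2 (chr1:62703278-62703307, + strand): ggaacacagaagGGGCGGgccctgagcggg

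The comparison of mutants with controls asks whether Dyrk1a inactivation in the Dlx5 domain altered the RNA of this guidance system. None of the 33 members passed the threshold of 0.05 (edgeR quasi-likelihood F test, Benjamini-Hochberg over all tested genes, adjusted p = 0.9999 for each). None had an unadjusted p under 0.05 either, where 1.92% of all tested genes did. Over all genes 0% were called (376 genes at an unadjusted p under 0.05), and DESeq2 and limma-voom also called 0 (292 and 393 genes unadjusted). The members' log2 fold changes ran from -0.17 for Sema3d to 0.21 for Plxnb3. Their median was -0.03, against -0.01 over all tested genes, with 13 above 0 and 20 below (52.5% of all tested genes lay below 0). Of the cell type markers 0 passed the threshold. All 8 forebrain markers lay above 0 (median 0.04), as did 9 of 11 progenitor markers (median 0.08) and 7 of 8 inhibitory neuron markers (median 0.10). Choroid plexus and oligodendrocyte precursor markers leaned as far, with 5 of 6 above 0 in each (medians 0.14 and 0.11). Excitatory neuron markers split 4 and 4, and meningeal and thalamic markers each had 4 above and 5 below. Single markers had larger values than any member. The progenitor gene Sox2 stood at 0.40 ± 0.16 (SE), with 76.6, 72.4 and 109.6 CPM in mutant replicates 1, 2 and 3. The thalamic gene Irx1 stood at 0.54 ± 0.23. Of 5 tested epithelial genes 4 lay above 0, among them Krt18 (0.73 ± 0.29), and Dsp lay below (-0.65 ± 0.14). In the edgeR fit unadjusted p was 0.0329 for Sox2, 0.0409 for Irx1, 0.0343 for Krt18 and 0.00154 for Dsp. The part of the markers in the members' values was not tested.

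The 95% intervals say how large a difference these libraries leave room for. For 28 of 33 members the interval lay within a 1.5-fold change in either direction, a larger share than the 63.9% of all tested genes. The 5 others were Sema3b, Sema3d, Plxdc1 and Plxnb3, which had at most 156 counts in any library, and Sema6b. Narrow intervals were found for several abundant receptors: Plxna2 from -16.7% to 5.2%, Plxna1 from -14.0% to 8.9%, Plxna3 from -15.6% to 7.8%, Plxnc1 from -12.7% to 11.9% and Nrp2 from -13.1% to 11.4%. Other abundant receptors had wider ones, among them Plxnb1 (-19.9% to 14.5%) and Nrp1 (-23.2% to 22.8%). In bulk RNA, fewer cells of a type and less RNA per cell cannot be told apart, and a change limited to the Dlx5 domain would be diluted by the other cells.

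**Figure D2:**
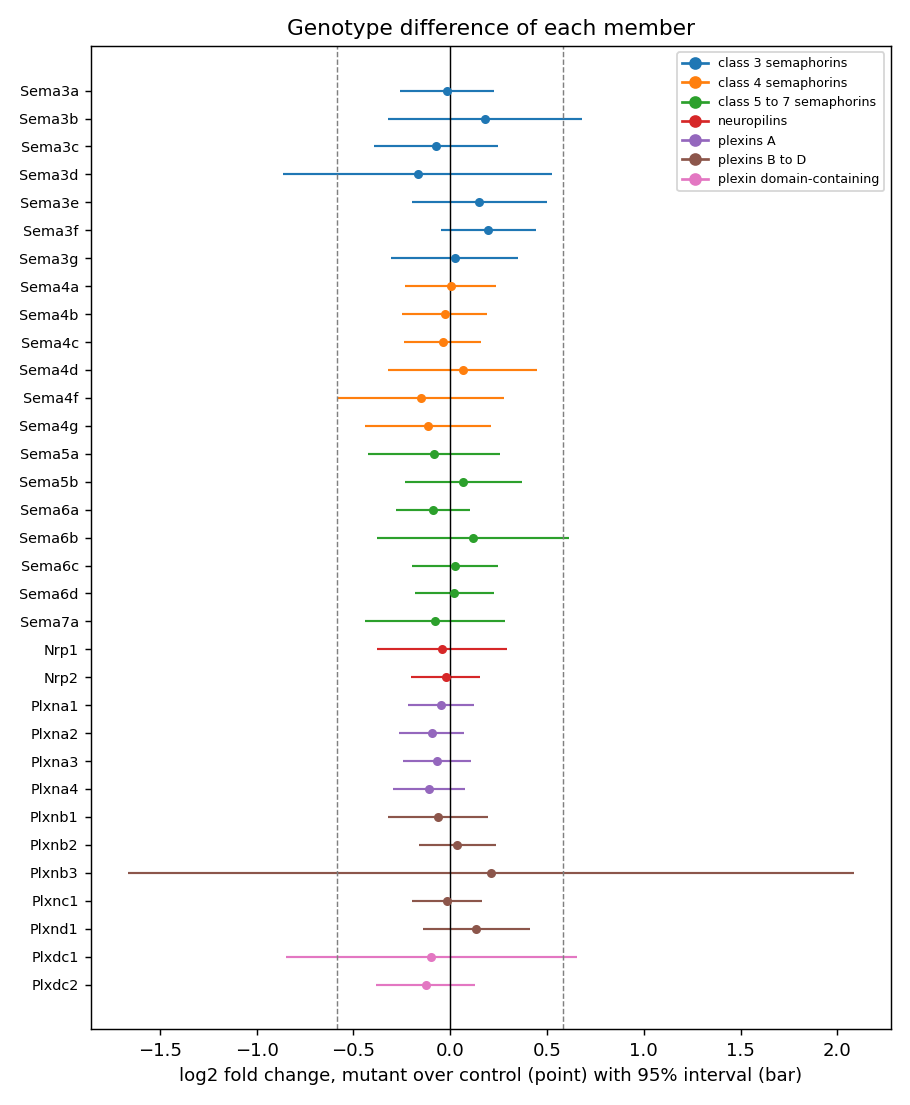
Log2 fold change of each member, mutant over control (point), with its 95% interval (bar), coloured by role; dashed lines mark a 1.5-fold change. All 33 intervals include 0, and those of Plxnb3, Plxdc1, Sema3d, Sema3b and Sema6b cross a dashed line.

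The A-type plexins, the signalling receptors for class 3 and class 6 semaphorins, all had values below 0, and none passed the test. Plxna2, a receptor of Sema6a and of neuropilin complexes (GRCm38 chromosome 1, 194618218 to 194816869, + strand), held 1141, 1169 and 1134 CPM in control replicates 1, 2 and 3, and 1095, 1105 and 1022 CPM in the mutants. Every mutant thus lay below every control, the only member of 33 for which this held, where 3.70% of all tested genes did. Means were 1148 ± 18.6 CPM for controls against 1074 ± 45.3 CPM for mutants (SD, n = 3 each), and the log2 fold change was -0.10 ± 0.07 (SE; adjusted p = 0.9999, edgeR). With per-library trends of GC content and length removed it was -0.05, and without mutant replicate 3 it was -0.06. Plxna2 overlaps 4 tested genes on its own strand by gene span, the largest at 59.9 CPM. Whether exons are shared was not examined, and how reads in any shared exon were assigned is not stated.

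Plxna4, the main partner of neuropilin 1 in Sema3a signalling (chromosome 6, 32144268 to 32588192, - strand), held 633.9, 607.6 and 586.9 CPM in controls and 573.8, 592.6 and 528.9 CPM in mutants. The groups overlapped through mutant replicate 2 and control replicate 3. Its log2 fold change was -0.11 ± 0.08 (SE), the lowest of the 4 A-type plexins. The value was -0.06 without mutant replicate 3.

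Plxna3, an X-linked receptor used by neuropilin 2 complexes, held 439, 414.5 and 427.6 CPM in controls and 415.7, 420.3 and 386.1 CPM in mutants, or -0.07 ± 0.08 (SE). Plxna1, a receptor of Sema6c and Sema6d, held 441.6, 449.0 and 468.7 CPM in controls and 426.8, 449.3 and 439.5 CPM in mutants, or -0.05 ± 0.08. In both genes the groups overlapped. The sign of all 4 was kept in each of the 17 alternative fits. Of the 31 members tested in every fit, 11 (35.5%) kept their sign in this way, as did 39.8% of all such genes.

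**Figure D3:**
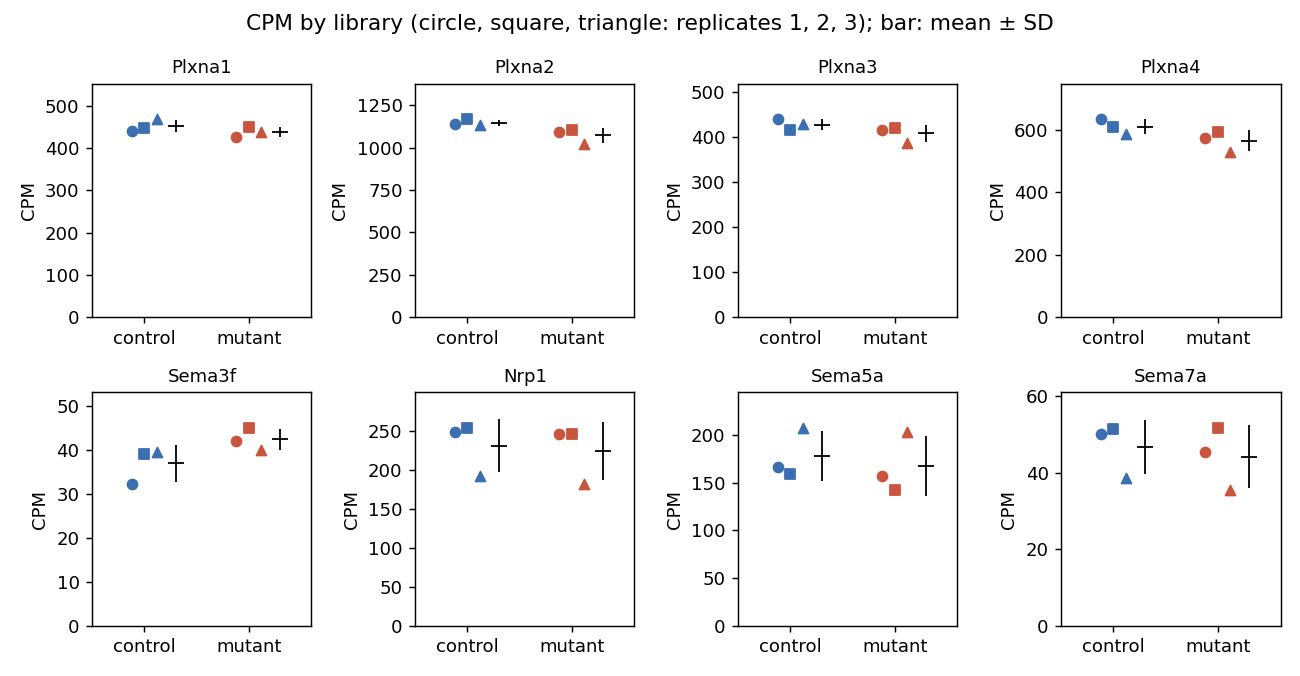
CPM of 8 members in each library (circle, square and triangle for replicates 1, 2 and 3), with the mean and SD of each genotype as a bar beside the points, on axes that start at 0. Plxna2 has its mutants (1022 to 1105) below its controls (1134 to 1169), whereas Nrp1 and Sema7a are low and Sema5a high in replicate 3 of both genotypes.

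Sema3f, a secreted ligand of neuropilin 2 that repels migrating interneurons from the striatum, had the smallest p of the 33 (unadjusted p = 0.102, adjusted p = 0.9999, edgeR). It lies on chromosome 9, 107681500 to 107710475, - strand. Control libraries stood at 32.1, 39.2 and 39.6 CPM, mutant libraries at 42.1, 45.0 and 40.0 CPM. Every mutant lay above every control, which held for this member alone and for 3.19% of all tested genes, but mutant replicate 3 and control replicate 3 differed by little. The log2 fold change was 0.20 ± 0.11 (SE), with an interval from -0.05 to 0.44. It was 0.11 with GC and length trends removed and 0.11 without control replicate 1, its lowest library.

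The other class 3 ligands showed no common direction. Sema3a, the neuropilin 1 ligand that collapses growth cones, held 67.5, 67.3 and 56.7 CPM in controls and 68.2, 56.7 and 64.2 CPM in mutants, a log2 fold change of -0.02 ± 0.11 (SE). Sema3c, which attracts some cortical axons, had -0.07 ± 0.14, and Sema3e, a ligand that can bind Plxnd1 without a neuropilin, had 0.15 ± 0.15. Sema3b and Sema3g had 0.18 ± 0.22 and 0.02 ± 0.14. In all, 4 of the 7 class 3 genes lay above 0. Sema3d, Sema3a, Sema3e and Sema3c lie within 1 stretch of chromosome 5 (12383385 to 17730268), and Sema3b and Sema3f within 1 of chromosome 9 (107597674 to 107710475). Sema3a, Sema3d and Sema3e overlap tested genes on their own strand by gene span, for Sema3d one at 1.93 CPM beside its own 3.94 CPM.

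The neuropilins, the ligand-binding receptors of class 3 semaphorins, lay close between genotypes. Nrp1, also a co-receptor of VEGF (chromosome 8, 128358604 to 128503363, + strand), held 248.1, 253.7 and 191.7 CPM in controls and 246.1, 246.2 and 181.4 CPM in mutants, or -0.04 ± 0.15 (SE). Nrp2 (chromosome 1, 62703285 to 62818695, + strand) held 262.3, 268.2 and 267.8 CPM in controls and 254.7, 278.2 and 252.8 CPM in mutants, or -0.02 ± 0.08. The spread of Nrp1 came from replicate 3 of both genotypes, whereas Nrp2 varied little. The ratio of their CPM, Nrp1 over Nrp2, was 0.946, 0.946 and 0.716 in controls and 0.966, 0.885 and 0.717 in mutants.

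Plexins of types B to D had 3 values above 0 and 2 below. Plxnb2, a receptor of class 4 semaphorins found in progenitors (chromosome 15, 89155549 to 89180788, - strand), held 361.2, 362.9 and 409.4 CPM in controls and 367.9, 406.0 and 389.9 CPM in mutants, or 0.04 ± 0.09 (SE). Plxnb1, the receptor of Sema4d (chromosome 9, 109095389 to 109119917, + strand), held 335.7, 327.4 and 409.4 CPM in controls and 309.3, 342.9 and 374.6 CPM in mutants, or -0.06 ± 0.11. Both had overlapping groups. Plxnc1, the receptor of Sema7a, ranged only from 148.9 to 163.4 CPM over the 6 libraries, a log2 fold change of -0.02 ± 0.08.

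Plxnd1, the receptor of Sema3e on endothelium and some striatal neurons, held 62.6, 77.5 and 85.5 CPM in controls and 76.5, 84.7 and 86.6 CPM in mutants. Control replicate 1 was its lowest library and the groups overlapped. The log2 fold change was 0.14 ± 0.12 (SE), and 0.02 without control replicate 1. Beside it, the 9 endothelial markers summed to between 290.3 and 310.2 CPM in controls and 296.2 and 322.6 CPM in mutants, with 7 of 9 above 0 and a median log2 fold change of 0.05. Their part in the value was not tested. Plxnb3, an X-linked plexin known from oligodendrocytes, had 25, 19 and 0 counts in controls and 18, 18 and 9 in mutants.

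Class 4 semaphorins, mostly ligands of B-type plexins, had 2 values above 0 and 4 below. Sema4f had the lowest, -0.15 ± 0.19 (SE), and Sema4d, the ligand of Plxnb1, the highest, 0.06 ± 0.17. Sema4g stood at -0.12 ± 0.14, Sema4b at -0.03 ± 0.10 and Sema4a at 0.00 ± 0.10. Sema4c, the most abundant semaphorin per length and a ligand of Plxnb2 (chromosome 1, 36548639 to 36558349, - strand), held 109.1, 106.2 and 106.4 CPM in controls and 101.1, 114.4 and 97.8 CPM in mutants, or -0.04 ± 0.09. The mutants surrounded the controls. Sema4c overlaps, by gene span, a tested gene on the opposite strand at 2.63 CPM. No strand setting for the counting is stated in the sources used here, so reads of the pair cannot be told apart with certainty.

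Classes 5 to 7 had 4 values above 0 and 3 below. Sema6a, a membrane ligand and reverse-signalling partner of Plxna2 and Plxna4 (chromosome 18, 47235598 to 47368870, - strand), had the second smallest p of the semaphorins. It held 98.4, 108.8 and 100.8 CPM in controls and 101.9, 91.7 and 96.4 CPM in mutants, or -0.09 ± 0.09 (SE; adjusted p = 0.9999, edgeR). Sema6c (chromosome 3, 95160457 to 95174024, + strand) held 97.5, 101.5 and 103.4 CPM in controls and 99.3, 115.2 and 93.2 CPM in mutants, or 0.02 ± 0.10. Both sets of groups overlapped. Sema6d, a ligand of Plxna1, had 0.02 ± 0.09, Sema6b 0.12 ± 0.22 and Sema7a, a membrane-anchored ligand of Plxnc1 and integrins, -0.08 ± 0.16.

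The plexin domain-containing genes resemble plexins only in a short extracellular domain and are known as receptors of PEDF. Plxdc2 (chromosome 2, 16356304 to 16755839, + strand) held 28.0, 28.0 and 23.6 CPM in controls and 26.3, 22.4 and 24.1 CPM in mutants, a log2 fold change of -0.13 ± 0.11 (SE; adjusted p = 0.9999, edgeR). The groups overlapped through control replicate 3. The value was -0.07 without mutant replicate 2, -0.20 without control replicate 3 and -0.05 with GC and length trends removed. Plxdc1, an endothelial gene in tumours (chromosome 11, 97923238 to 97986444, - strand), had between 12 and 28 counts per library, and its log2 fold change was -0.10 ± 0.33.

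Replicate 3 was a source of spread for many members in both genotypes. The differences below are log2 CPM of replicate 3 minus the mean of replicates 1 and 2, within each genotype. They are a description without a test, since these libraries were known to stand apart, and a minimum of 0.2 was set with the values in view. Lower by at least 0.2 in both genotypes were 10 of 33 members, where 13.9% of all tested genes were. Higher by as much in both were 3 of 33, where 10.3% of all tested genes were.

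The 10 lower members were Nrp1, Sema3c, Sema3d, Sema4d, Sema4f, Sema4g, Sema6b, Sema7a, Plxdc1 and Plxnb3. Nrp1 differed by -0.39 in controls and -0.44 in mutants, and Sema7a by -0.40 and -0.45. Sema7a held 50.1, 51.4 and 38.5 CPM in controls and 45.5, 51.7 and 35.4 CPM in mutants, so that both replicate 3 libraries lay below the other 4. Its receptor Plxnc1 stood at 0.00 and -0.08. The ratio of CPM, Sema7a over Plxnc1, was accordingly 0.322, 0.327 and 0.246 in controls and 0.301, 0.316 and 0.238 in mutants.

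Sema6b, a membrane ligand of Plxna4, held 47.1, 58.2 and 38.2 CPM in controls and 57.1, 62.9 and 35.5 CPM in mutants, differences of -0.45 and -0.75. Sema4f stood at -0.56 and -0.48, and Sema4d at -0.35 and -0.51. The ratio of Sema4d to its receptor Plxnb1 was 0.0889, 0.110 and 0.0626 in controls and 0.112, 0.105 and 0.0661 in mutants, again lowest in both replicate 3 libraries. Sema3d, a secreted ligand at a low level here, held 4.68, 5.63 and 2.24 CPM in controls and 4.08, 3.70 and 3.28 CPM in mutants. Its difference was thus larger in controls (-1.17) than in mutants (-0.24). Plxdc1 stood at -0.52 and -0.77 on 12 to 28 counts.

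For Plxnb3, 0 counts in control replicate 3 allow up to 0.0791 CPM (3 counts, counting error only). That limit is 9.61-fold below the mean of the other controls, 0.760 CPM, whose own error (25 and 19 counts) is not included. In the same libraries the 6 oligodendrocyte precursor markers, a lineage in which Plxnb3 is known, had medians of -0.52 in controls and -0.94 in mutants, with 5 of 6 lower in both. Their summed level was 81.8 and 80.3 CPM in the replicate 3 libraries and 106.2 to 118.5 CPM in the other 4. Pdgfra, also listed here as a meningeal marker, held 45.5 and 43.5 CPM of it against 57.0 to 61.6 CPM. Cspg4 is also on the mural list, and Olig2 was higher in both genotypes (0.20 and 0.05). None of the 6 was at 0. Their part in the value of Plxnb3 was not tested.

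The 3 higher members were Sema5a, Sema5b and Plxnb1. Sema5a, a transmembrane ligand with thrombospondin repeats (chromosome 15, 32244810 to 32696341, + strand), held 166.7, 158.8 and 207.2 CPM in controls and 157.0, 142.6 and 202.8 CPM in mutants. Sema5b, its close relative (chromosome 16, 35541145 to 35664732, + strand), held 64.6, 70.7 and 89.4 CPM in controls and 72.9, 75.1 and 87.8 CPM in mutants. In both genes the replicate 3 libraries of both genotypes lay above the other 4. The differences were 0.35 and 0.44 for Sema5a, 0.40 and 0.25 for Sema5b, and 0.30 and 0.20 for Plxnb1. Just outside the minimum were Plxnd1 (0.30 in controls and 0.11 in mutants) and, on the lower side, Sema3e (-0.34 and -0.12).

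**Figure D4:**
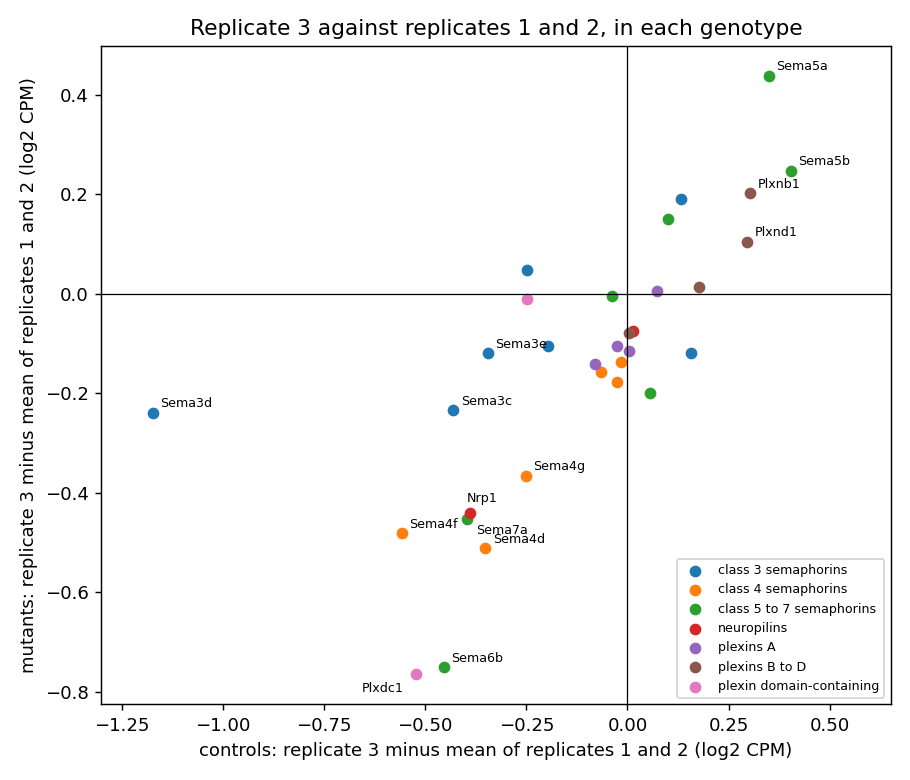
Replicate 3 minus the mean of replicates 1 and 2 in log2 CPM, controls on the horizontal and mutants on the vertical axis, for 32 members coloured by role; Plxnb3 is not drawn because control replicate 3 had 0 counts. Sema5a, Sema5b and Plxnb1 lie in the upper right, and Nrp1, Sema7a, Sema4f, Sema4d, Sema6b and Plxdc1 in the lower left.

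Cell type markers differed between the same libraries. Of 11 progenitor markers, 10 were higher in replicate 3 in both genotypes, with median differences of 0.62 and 0.56, against 0.005 and 0.006 over all tested genes. Progenitor markers summed to 2563 and 2678 CPM in the replicate 3 libraries against 1737 to 1992 CPM in the other 4. Of 8 excitatory neuron markers, 7 were lower in both, with medians of -0.17 and -0.19 and a summed level of 867.8 and 933.5 CPM against 921.7 to 1105 CPM. The 8 inhibitory neuron markers had medians of 0.07 and 0.21. Lower in both genotypes were also 6 of 8 microglial, 6 of 9 meningeal and 5 of 7 mural markers. The mural medians were small, -0.09 and -0.06, and 1 mural marker, Notch3 (0.60 and 0.47), was higher in both. The summed mural level was higher in replicate 3, at 308.5 and 306.4 CPM against 289.5 to 293.3 CPM in the other 4. Of the 7 erythroid genes 4 were higher in both, led by the embryonic globin Hbb-y with 320.7 and 322.0 CPM in the replicate 3 libraries and 27.8 to 42.5 CPM in the other 4. The globins Hba-x (13.9 and 11.6 CPM against 3.27 to 4.22 CPM) and Hbb-bh1 (2.00 and 1.55 CPM against 0.210 to 0.492 CPM) were also higher. Without Hbb-y the other 6 genes summed to 109.1 and 116.3 CPM against 117.4 to 137.6 CPM. Alas2 and the globins Hba-a1 and Hba-a2 were lower in replicate 3 in both genotypes. Whether the members' differences came from these cell types was not tested. The A-type plexins had medians of -0.01 in controls and -0.11 in mutants, and the 33 members together -0.04 and -0.12.

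GC content moved with the members' values in mutant replicate 2. Of the 22 members whose longest transcript has a GC content of at least 50%, 20 were higher in that library than the mean of the other 5, with a median of 0.12, and in 7 it was the highest library. Of the 11 members below 50%, 8 were lower, with a median of -0.08, and in 4 it was the lowest library. All tested genes did the same, with medians of 0.13 and -0.11, so this was not particular to the members. Sema6b (63.5% GC) stood at 0.44 and Sema6c (61.5%) at 0.22, while Sema5a (45.9%) stood at -0.31 and Plxdc2 (42.4%) at -0.21. Nrp1 (41.9%) went the other way, at 0.15. Sema3f, with 58.4% GC, stood at 0.23 in this library.

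**Figure D5:**
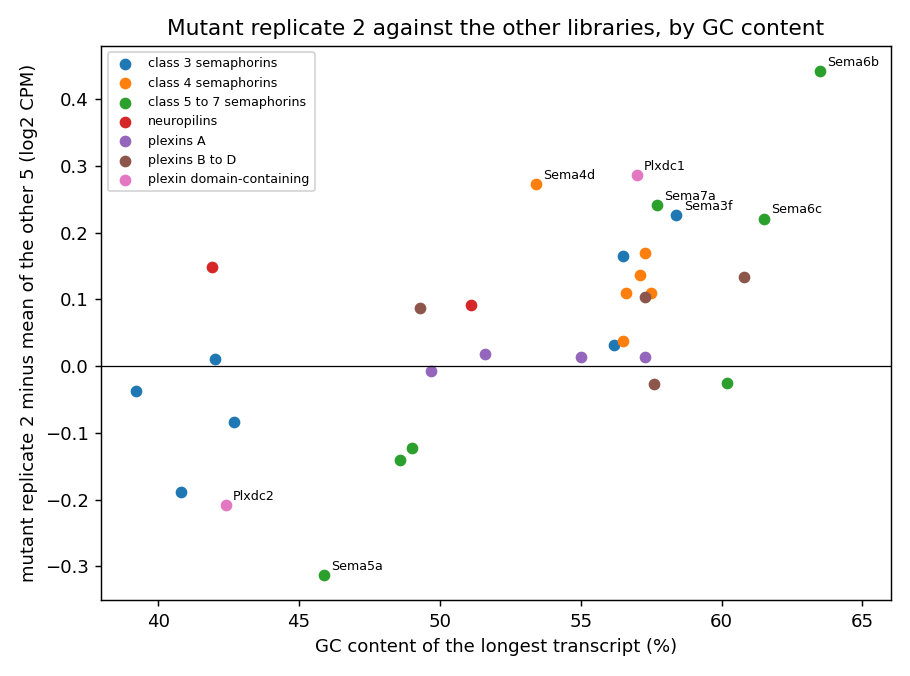
Mutant replicate 2 minus the mean of the other 5 libraries in log2 CPM (vertical axis) against GC content of the longest transcript in percent (horizontal axis), for 32 members coloured by role, Plxnb3 left out. GC-rich members such as Sema6b (0.44) lie above 0 and most members below 50% GC lie below it.

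No other gene of the pathway passed the test between genotypes. A list of 92 co-receptors, GTPases, their regulators, kinases, cytoskeletal effectors and processing enzymes had 90 tested genes, of which 0 passed the threshold in either direction and 0 had an unadjusted p under 0.05, where 1.92% of all tested genes did. Their median was -0.01 on the log2 scale, 40 had values above 0 and 50 below, and in 3 of 90 every mutant lay above and in 3 below every control, where 3.19% and 3.70% of all tested genes did.

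The cytoskeletal effectors included the smallest p of these lists. Vasp, an actin polymerization factor, had 0.19 ± 0.10 (SE) and the collapsin response mediators Dpysl4 and Dpysl2 had 0.15 ± 0.09 and -0.15 ± 0.10. Dpysl2 carries the Sema3a signal to microtubules and had a mean of 1226 ± 143 CPM over the controls against 1108 ± 79.5 CPM over the mutants (SD, n = 3 each). The group split 6 above and 9 below.

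Among regulators, the adaptor gene Gipc1, whose product binds the tail of neuropilin 1, had 0.20 ± 0.11 (SE), Iqsec1 0.09 ± 0.09 and Srgap1 -0.09 ± 0.10, with 6 above and 10 below. The GTPases split 10 above and 7 below, led by Rhob at 0.21 ± 0.13, Rap1a at -0.17 ± 0.17 and Rras at 0.23 ± 0.24. The kinases split 9 and 7, with Gsk3b at -0.12 ± 0.09, Src at 0.09 ± 0.09 and Fes, which binds plexins, at -0.14 ± 0.16. Of 17 co-receptors, 5 lay above 0 and 12 below, among them the integrin subunit gene Itgav at -0.15 ± 0.11, Mst1r at -0.24 ± 0.25 and Ptk7 at 0.11 ± 0.12. The 9 processing enzymes split 4 and 5, with Pcsk7 at 0.12 ± 0.08, Adam17 at -0.13 ± 0.09 and Mmp14 at 0.14 ± 0.11. None of these named genes passed (edgeR, adjusted p = 0.9999 for each).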

How the data were processed

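Single-end libraries were made with a stranded total RNA kit after ribosomal depletion, per the labels' protocols, which elsewhere name polyA RNA as the molecule. The authors deposited raw read counts per gene (whole numbers, not normalized). These came, per the series' design text and the submitters' processing notes, from HISAT2 on GRCm38 release 93, SAMtools 1.9 and HTSeq 0.9.1. Symbols, positions, lengths and GC content came from GENCODE M21 on GRCm38, which matched 32888 of 33084 identifiers. Genes were kept by filterByExpr (count minimum 10, total minimum 15), scaled by TMM and tested with edgeR 4.0.16 (quasi-likelihood F test, robust, no covariate, Benjamini-Hochberg, threshold 0.05) in R 4.3.3. Intervals of 95% use the fitted standard error. Log2 CPM used a prior count of 2. Alternatives used DESeq2 1.42.0 and limma 3.58.1, and figures matplotlib 3.10.9. The authors' own differential test was not used here. The edgeR fit was also run on simulated counts, drawn independently per library without the replicate 3 or GC differences seen here. That run therefore says nothing about those differences. GC and length trends were removed with splines of 5 degrees of freedom.

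The members, lists and tests were chosen with earlier results of these data known. Named by rule were the most abundant member of each role group, the smallest p of each receptor or ligand group, members whose groups do not overlap, the extremes of the replicate 3 difference and the 3 genes with the smallest p per pathway list. Others are named to account for every member.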

Additional observations from a re-analysis of the deposited data

How the results depend on the processing

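Over the 17 alternatives 0 members passed the threshold, and the median of the members ranged from -0.06 to 0.01. Over all genes 0 were called, except 3 with only the 4 libraries of replicates 1 and 2, where no member was among them. The members whose groups do not overlap (2) numbered 2 with DESeq2 size factors and from 2 to 10 on leaving out 1 library: 5 without control replicate 2 (3 above and 2 below, where 5.88% and 6.72% of all tested genes were), 10 without control replicate 3 (3 and 7, against 11.9% and 12.2%) and 7 without mutant replicate 2 (1 and 6, against 6.88% and 7.28%). Members at an unadjusted p under 0.05 numbered 2 with sample weights (Plxnd1 and Sema3f; 9.73% of all tested genes), 1 without control replicate 3 (Sema3d; 5.33%), 1 with replicates 1 and 2 alone (Sema3f; 7.86%) and 5 with the replicate block and GC and length trends removed (Sema4f, Sema4g, Sema6b, Sema6c and Sema7a; 5.41%). Correlations between libraries cannot show whether samples with the same replicate number were paired. Deviations of same-numbered libraries correlated at 0.241, 0.071 and 0.355, and only replicate 3 correlated best with its own number in both genotypes. With the replicate block alone 0 genes were called, 765 had an unadjusted p under 0.05 instead of 376, and the median of the members was -0.03.

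For 22 of 33 members, none past the threshold, the sign changed in at least 1 alternative. With GC and length trends removed, Nrp1 was at 0.02, Plxnb2 at -0.003, Sema5b at -0.042 and Sema6c at -0.134, and with the replicate block as well these were 0.004, -0.002, -0.043 and -0.134. With replicates 1 and 2 alone Nrp2 was at 0.012, Sema4c at 0.007 and Plxnb3 at -0.175. Leaving out 1 library gave ranges of -0.152 to 0.094 for Nrp1, -0.069 to 0.005 for Nrp2, -0.271 to 0.139 for Plxdc1, -0.13 to 0.054 for Plxnb1, -0.436 to 0.723 for Plxnb3, -0.47 to 0.099 for Sema3d, -0.108 to 0.01 for Sema4c, -0.243 to 0.05 for Sema5a, -0.028 to 0.225 for Sema5b and -0.067 to 0.093 for Sema6c. Over all alternatives the ranges of the others were -0.135 to 0.332 for Sema6b, -0.205 to 0.063 for Sema7a, -0.038 to 0.219 for Sema4d, -0.195 to 0.015 for Sema3c, -0.189 to 0.022 for Sema4g, -0.105 to 0.064 for Sema3a, -0.091 to 0.097 for Sema3g, -0.059 to 0.017 for Plxnc1, -0.053 to 0.094 for Sema4a, -0.083 to 0.033 for Sema4b and -0.027 to 0.076 for Sema6d. The cause was not tested. Plxdc1 (12 to 28 counts per library) and Plxnb3 (0 to 25) rest on few counts, and Sema3d had a biological coefficient of variation of 0.259 against a median of 0.115 over the members. Plxnb3, with 0 counts in 1 library, stood at 1.66 with limma-voom.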

Other observations

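The VEGF branch, which shares neuropilins with the class 3 semaphorins, was also measured. Vegfa, the main ligand of Nrp1 outside the semaphorins, held 48.9, 48.8 and 55.6 CPM in controls and 48.8, 53.1 and 54.4 CPM in mutants, a log2 fold change of 0.03 ± 0.09 (SE). Its receptor genes Kdr and Flt1 had -0.02 ± 0.08 and 0.02 ± 0.09. Of the 5 VEGF family ligands, 4 lay above 0, with Pgf at 0.26 ± 0.20 and Vegfb at 0.22 ± 0.18, and none passed the threshold (adjusted p = 0.9999, edgeR's quasi-likelihood test). The 3 antisense genes named after Plxna4 were near the detection limit, with 0 to 7 counts per library.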
